A study of Mus musculus with 13 samples.

Results

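Irf4 and Irf8 are transcription factors of the interferon regulatory factor family, and they were 2 of the 94 genes measured by quantitative PCR in single mouse CD8+ T cells. Both were chosen by gene name, each is measured by 1 assay, and both were measured in all 1449 cells. The cells carried the OT-1 T cell receptor, which recognises ovalbumin, and the responding cells met Listeria monocytogenes expressing that protein (Lm-OVA). Donor cells, marked by CD45.1, were placed in CD45.2 C57BL/6J hosts, which received 5000 colony-forming units of Lm-OVA through a vein the day after. The 13 populations, each 1 sample of 48 to 154 splenic cells, were unactivated naive cells (day 0), cells after their first division (day 2), proximal and distal daughter cells (day 2), unsorted responders at days 3, 5 and 7, subsets sorted at the latter 2 times as memory precursors (Tmp) or short-lived effectors (Tsle), and day 45 memory cells of the central (Tcm) or effector (Tem) kind. For the first division 2000000 cells labelled with the dye CFSE were transferred and the spleen was taken at 48 hours. For day 3, 20000 cells were transferred, and for days 5, 7 and 45, 5000 cells. The sources used here do not give those numbers for naive, proximal and distal cells, the gates of the subsets or the number of mice. All cells thus share 1 receptor specificity, and a difference between the first division, day 3 and day 5 cannot be told apart from the number of cells transferred.

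IRF4 is induced in T cells by signals from the antigen receptor and is known for scaling with the strength of that signal. In CD8+ T cells it works with BATF at composite DNA sites and supports clonal expansion and effector differentiation. IRF8 is its closest relative in the family, best known as a factor of dendritic cell, monocyte and B cell development, and it is also induced in activated CD8+ T cells by antigen and common gamma chain cytokines. Neither protein binds DNA strongly alone, and both act largely with partner factors.

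Because the 2 transcripts moved together across the populations (below), the 250 bases upstream of their first annotated start sites are shown, from RefSeq on build GRCm38.p6. The Irf4 window lies at chr13:30748983-30749232 and the Irf8 window at chr8:120736108-120736357, both on the + strand. Capitals mark the matches found.

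Irf4: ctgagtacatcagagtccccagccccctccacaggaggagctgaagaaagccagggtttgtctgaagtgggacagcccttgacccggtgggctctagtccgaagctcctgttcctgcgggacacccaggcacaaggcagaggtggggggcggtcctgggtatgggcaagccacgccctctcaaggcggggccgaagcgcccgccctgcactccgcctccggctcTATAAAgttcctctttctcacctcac

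Irf8: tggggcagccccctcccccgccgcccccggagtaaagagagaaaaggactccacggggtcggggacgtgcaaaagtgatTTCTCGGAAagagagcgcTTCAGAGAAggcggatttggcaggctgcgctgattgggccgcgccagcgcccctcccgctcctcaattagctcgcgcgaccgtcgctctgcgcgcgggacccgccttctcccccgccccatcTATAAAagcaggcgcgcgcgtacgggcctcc

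Both windows hold a TATA box (TATAAA), 26 to 21 bases upstream of the start in Irf4 and 31 to 26 in Irf8. TATAAA was found on either strand in 12.4% of the 32851 mouse promoter windows of the same length. The Irf8 window also holds 2 matches to the gamma-activated site, TTCNNNGAA, the element bound by STAT dimers, at 171 to 163 and 153 to 145 bases upstream, and 7.02% of windows hold at least 1. The Irf4 window holds no match to it. Neither window holds the interferon-stimulated element core (GAAA, any 2 bases, GAAA, in 2.98% of windows), TGANTCA (AP-1, 6.75%), TGGAAA (NFAT core, 18.6%) or the NF-kappaB site (7.25%). A second Irf8 start site of the table, at chr8:120738389-120738638, holds none of the motifs. The matches describe letters only.

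A cell counts as having a transcript when its deposited value is above 0. Irf4 was found in 143 of the 1449 cells and Irf8 in 132, which is 9.87% and 9.11%. The 418 cells of the first division, the proximal and distal daughters and day 3, called the early populations here, held 124 of the 143 cells with Irf4 (86.7%, exact Clopper-Pearson 95% interval 80.0 to 91.8%) and 109 of the 132 with Irf8 (82.6%, 75 to 88.6%). Most measured cells with either transcript thus came from the early populations. These fractions and their intervals depend on how many cells of each population were measured. As shares, 29.7% of the 418 early cells had Irf4 and 26.1% had Irf8. All intervals cover counting error only, since each population is 1 sample and no test across samples was possible.

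No naive cell had either transcript, which at 149 cells allows a share of up to 2.01% for each. Irf4 was highest in first-division cells, with 56 of 144 (38.9%, 30.9 to 47.4%). It followed in proximal cells with 23 of 83 (27.7%, 18.4 to 38.6%), day 3 cells with 35 of 143 (24.5%, 17.7 to 32.4%) and distal cells with 10 of 48 (20.8%, 10.5 to 35.0%). Each neighbour in this order overlapped the next within its interval. The next population, unsorted day 5 cells, had 9 of 154 (5.84%, 2.71 to 10.8%), an interval that barely meets that of the distal cells and lies below the other early ones.

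Irf8 was highest in first-division cells, with 43 of 144 (29.9%, 22.5 to 38.0%), and in day 3 cells, with 42 of 143 (29.4%, 22.1 to 37.6%). Proximal cells had 17 of 83 (20.5%, 12.4 to 30.8%) and distal cells 7 of 48 (14.6%, 6.07 to 27.8%). These 4 intervals overlapped each other. Day 5 cells had 9 of 154 (5.84%), as for Irf4, and their interval of 2.71 to 10.8% overlapped that of the distal cells.

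From day 5 on both transcripts were rare. Irf4 was in 1 of 90 day 5 Tmp, 1 of 79 day 5 Tsle, 4 of 134 unsorted day 7, 3 of 89 day 7 Tsle and 1 of 136 Tem cells, and in none of 62 day 7 Tmp cells (up to 4.84%) or 138 Tcm cells (up to 2.17%). Irf8 was in 2 of 90, 1 of 79, 3 of 134, 3 of 89 and 1 of 136 cells of the same first-named populations, and in 1 of 62 day 7 Tmp and 3 of 138 Tcm cells. Over the 882 cells of days 5 to 45 the shares were 2.15% (1.30 to 3.34%) for Irf4 and 2.61% (1.66 to 3.89%) for Irf8. The intervals of these 8 populations overlapped one another for Irf8. For Irf4 they did so except between unsorted day 5 cells (2.71 to 10.8%) and Tcm cells (0 to 2.64%).

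**Figure D1:**
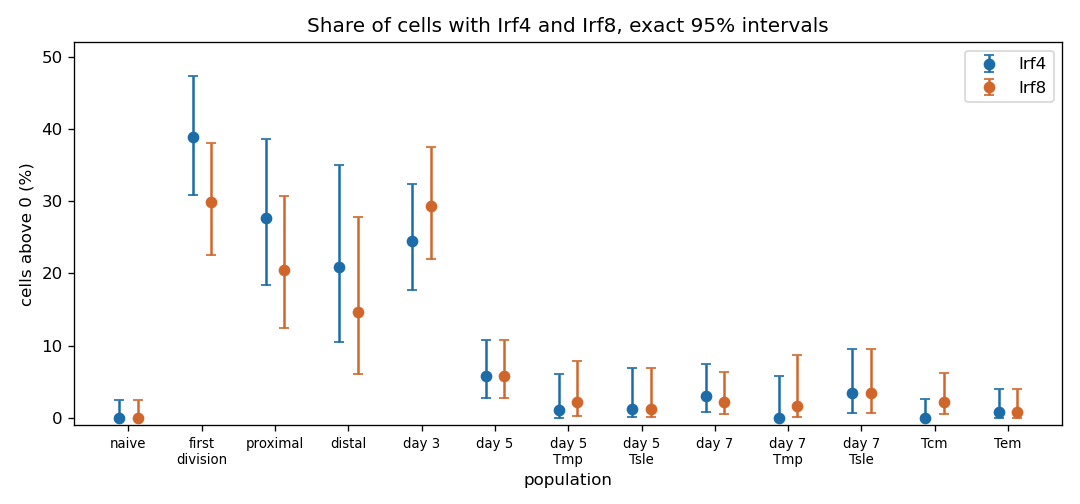
Share of cells with a value above 0 for Irf4 (blue) and Irf8 (orange) in the 13 populations, in percent of cells, with exact 95% intervals as bars. Both are at 0 in naive cells, between 14.6% and 38.9% in the 4 early populations and at or below 5.84% from day 5 on.

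To read these shares against the panel, the difference in share was computed for all 94 genes, and a gene was called where it reached 20 percentage points. Between naive and first-division cells, Irf4 rose by 38.9 points (Newcombe 95% interval 30.9 to 47.0) and Irf8 by 29.9 points (22.5 to 37.8), the third and the eighth largest rises. In this comparison 10 of the 94 genes were called higher, 10.6%, and both members were among them. Between naive and day 3 cells, Irf8 was 29.4 points higher (22.1 to 37.3) and Irf4 24.5 points (17.7 to 32.1), ranks 3 and 5 of 94, where 9 genes or 9.57% were called higher. With values past 12 only, the Irf4 difference at day 3 was 8.39 points and no longer called, and the Irf8 difference was 21.7. In each of these comparisons 3.19% of genes were called lower. The number of detected assays differed too, with a median of 12 per naive cell, 18 per first-division cell and 16 per day 3 cell, and its part in the rises was not tested.

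From the first division to day 3 neither gene reached the 20 points. The Irf4 share was 14.4 points lower at day 3 (interval of the difference -24.7 to -3.65), where 5 of 94 genes (5.32%) were called lower. The Irf8 share differed by -0.49 points (-11.0 to 10). Whether these changes differ from each other was not tested. The Irf4 difference moved with the columns of the file: it was -27.8 points over the later columns of each population and -0.96 over the earlier ones, and the part of this split was not tested. With values past 6 or past 12 only it was -22.8 and -30.5 points, past the call.

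Between day 3 and day 5 the Irf8 share fell by 23.5 points (interval -31.9 to -15.1), the eighth largest fall, where 9 of 94 genes (9.57%) were called lower. The Irf4 share was 18.6 points lower (-26.8 to -10.6), under the 20 points. With only values past 12 counted as detected, the Irf4 difference was -2.55 points, since most day 3 values of Irf4 were under 12 (below). The Irf8 difference was -17.1 points with values past 12 and -18.5 over the later columns, under the call. The median number of detected assays was 16 per day 3 cell and 19 per day 5 cell, and its part was not tested. From day 5 to day 7 the shares differed by -2.86 points for Irf4 (-8.07 to 2.36) and -3.61 for Irf8 (-8.71 to 1.36), beside 5.32% of genes called lower.

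Neither gene was called between sorted subsets of 1 time. Proximal cells had more than distal cells by 6.88 points for Irf4 (-9.00 to 20.7) and 5.90 for Irf8 (-8.64 to 18.2), while 8.51% of genes were called higher in proximal cells and the median of detected assays was 18 against 12. Over cells with at least 15 detected assays, the differences were -16.7 and -18.7 points, the other direction. That limit left 62 proximal and only 13 distal cells. It counts Irf4 and Irf8 among the assays, so no direction is read from it. With values past 12 only, the Irf4 difference was -3.97. Day 5 Tsle and Tmp cells differed by 0.15 points for Irf4 (-4.87 to 5.79) and -0.96 for Irf8 (-6.58 to 4.83), day 7 Tsle and Tmp cells by 3.37 (-2.87 to 9.45) and 1.76 (-5.56 to 7.98), and Tem and Tcm cells by 0.74 (-2.04 to 4.05) and -1.44 (-5.51 to 2.17). None of these 8 values reached 20 points, and all 8 intervals held 0. Over all genes, 2.13% were called higher and 3.19% lower in day 5 Tsle than Tmp cells, 3.19% and 2.13% at day 7, and 12.8% lower in Tem than Tcm cells.

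The height of a value in a cell that had the transcript is on a log2 scale of PCR cycles, on which 1 step is a doubling at full efficiency. In first-division cells Irf4 ran from 12.1 through a median of 14.6 to 18.0, and in distal cells from 13.0 through 15.3 to 16.1. In proximal cells it ran from 9.61 through 12.3 to 13.5, and in the 9 day 5 cells from 12.4 to 16.7 with a median of 13.8. Day 3 stood apart, from 2.12 through 6.99 to 16.1, and its values fell into separate ranges.

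That separation followed the order of the columns. In the earlier columns of day 3, 22 of 71 cells had Irf4 (31.0%), at 2.12 to 9.08 with a median of 5.92, and none was past 12. In the later columns 13 of 72 cells had it (18.1%), at 10.4 to 16.1 with a median of 14.4, and 12 were past 12. The ranges did not overlap, and the shift of 8.50 was the largest among the 44 genes with at least 5 cells in each set of columns, whose median absolute shift was 1.94. The sources used here do not name the array of each cell, and the part of the array or of cell handling was not tested. Heights of Irf4 are therefore not compared between populations.

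Irf8 moved less with the columns at day 3, with a median of 12.6 in the earlier and 15.0 in the later columns, rank 19 of 44 by size, and 33.8% against 25% of cells. In first-division cells the Irf8 median went the other way, 15.0 in the earlier and 11.8 in the later columns, the second largest shift of 51 genes, and 9 of the 19 later cells were past 12, the lowest at 1.68. Irf4 in the same cells stood at 13.4 and 15.1, rank 10 of 51. Over whole populations, Irf8 ran from 1.68 through 14.5 to 18.4 in first-division cells, 5.85 through 13.9 to 15.7 in proximal, 13.4 through 15.3 to 17.0 in distal, 2.74 through 13.5 to 17.5 in day 3 and 8.19 through 14.9 to 16.2 in day 5 cells. The ranges of Irf8 overlapped between all 5 populations.

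**Figure D2:**
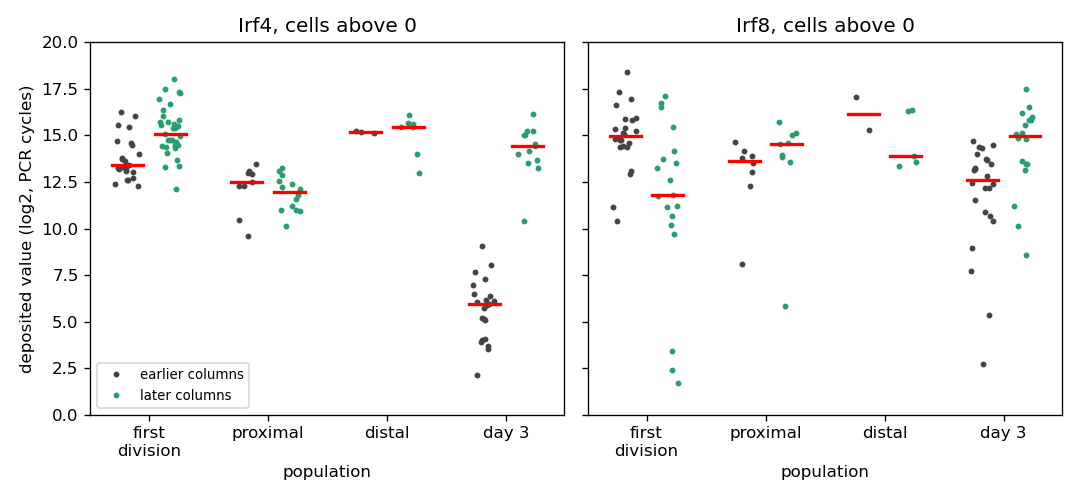
Deposited values (log2, PCR cycles) of Irf4 and Irf8 in the cells above 0 of the 4 early populations, each point a cell, split into the earlier (dark) and later (green) columns, with red lines at the medians. The 22 earlier day 3 cells with Irf4 lie at 2.12 to 9.08 and the 13 later ones at 10.4 to 16.1, while all first-division cells with Irf4 lie above 12.

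The shares were also compared by columns. Irf4 was in 31.9% of earlier and 45.8% of later first-division cells, 22.0% and 33.3% of proximal cells, and 3 of 24 and 7 of 24 distal cells. Irf8 was in 33.3% and 26.4%, 19.5% and 21.4%, and 2 of 24 and 5 of 24. Each of these shares was above the 0 of the naive cells. For Irf8 in earlier distal cells the interval (1.03 to 27.0%) overlapped that of the 149 naive cells (0 to 2.45%). At day 5, 8 of the 9 cells with Irf4 lay in the earlier columns (8 of 77 against 1 of 77), while the Irf8 cells were spread over both (4 and 5).

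Within the early populations the same cells tended to have both transcripts. Both were found in 24 first-division, 11 proximal, 5 distal and 20 day 3 cells, 60 cells in all. No cell outside these populations had both (0 of 882 cells of days 5 to 45, which allows up to 0.34%). At day 5, 9 cells had Irf4 alone and 9 had Irf8 alone, and the product of the 2 shares would give 0.53 cells with both, so a 0 there says nothing on pairing.

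In first-division cells Irf8 was in 42.9% of cells with Irf4 (29.7 to 56.8%) and 21.6% of cells without it (13.5 to 31.6%). In proximal cells the shares were 47.8% (26.8 to 69.4%) and 10% (3.76 to 20.5%), and in distal cells 50.0% (5 of 10, 18.7 to 81.3%) and 5.26% (2 of 38, 0.64 to 17.7%). At day 3 they were 57.1% (39.4 to 73.7%) and 20.4% (13.2 to 29.2%). The Irf8 share was higher beside Irf4 in all 4 populations, by 21.3, 37.8, 44.7 and 36.8 points, and in the earlier and the later columns of each, by 18.4 to 51.3 points. The intervals of the cells with and without Irf4 lay apart in proximal, distal and day 3 cells and overlapped narrowly in first-division cells. Read the other way, Irf4 was in 55.8% of first-division, 64.7% of proximal, 71.4% of distal and 47.6% of day 3 cells with Irf8.

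To set co-detection beside depth, the cells were divided at the median number of other assays. Among first-division cells at or above it, Irf8 was in 40.5% of cells with and 38.7% without Irf4, a difference of 1.77 points, and below it the difference was 37.7 points (50.0% of 14 against 12.3% of 57). At day 3 the difference was 46.9 points at or above the median (71.4% against 24.5%) and 19.4 below it. Proximal cells gave 45.9 and 9.77 points, and distal cells 50.7 and 0, since below the median no distal cell had Irf8. The difference thus changed in size with the number of detected assays in every population, and the part of depth in it was not tested. With only values past 12, the differences were 11.5, 47.0, 44.7 and 30.9 points in first-division, proximal, distal and day 3 cells.

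**Figure D3:**
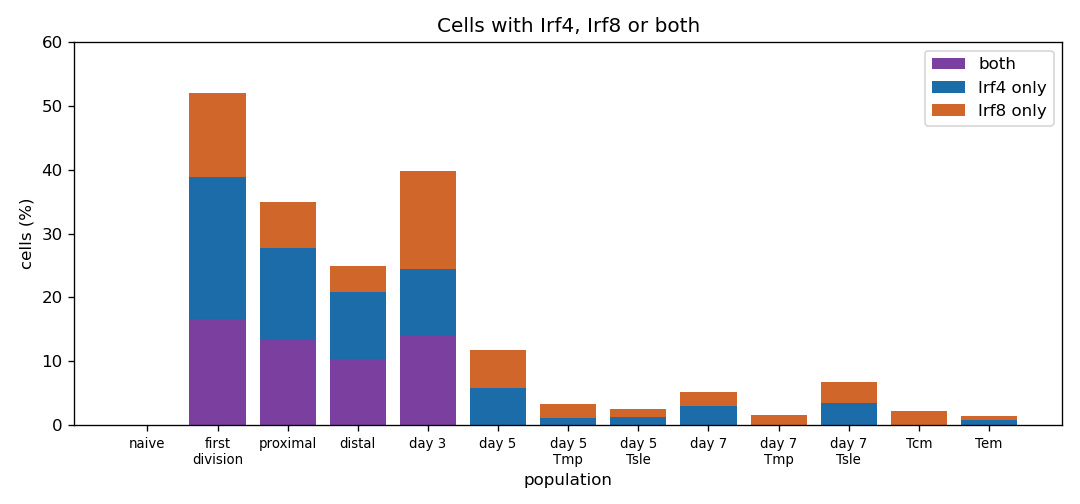
Share of cells with both transcripts (purple), Irf4 only (blue) and Irf8 only (orange) in the 13 populations, in percent of cells, stacked from 0. Cells with both are confined to the 4 early populations, with 24, 11, 5 and 20 cells in first-division, proximal, distal and day 3 cells, and day 5 has 9 cells of each single kind.

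Where both were present, their heights were loosely related within a set of columns. The Spearman rho was 0.10 and 0.61 over 12 and 12 first-division cells (earlier and later columns) and 0.20 and 0.26 over 12 and 8 day 3 cells. It was 0.89 over the 6 later proximal cells. These values describe cells of 1 sample each, whose arrays are not named, and no order is read from them.

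Among the other genes, those most like Irf4 and Irf8 in their share over the 13 populations were sought among the 76 with at least 5% in some population. The members themselves had a Spearman rho of 0.92 with each other. For Irf4 the nearest named here were Nfatc1, an antigen receptor responsive factor (0.83), Rel, an NF-kappaB subunit (0.80), Tnfrsf9, the costimulatory receptor 4-1BB (0.80), and Id3, an inhibitor of E proteins (0.79). For Irf8 they were Rel (0.84), Nfatc1 (0.82), Id3 (0.81), Tnfrsf9 (0.79) and Tnfrsf1b, a TNF receptor (0.75). By Pearson's r the order changed. Nfatc1 then ranked 22 and Rel 16 for both members, and Tnfrsf1b 26 for Irf8. Id3 ranked 11 for Irf4 and 5 for Irf8, and Tnfrsf9 ranked 2 and 1. Lowest were Il7r for Irf4 (-0.72), the survival cytokine receptor of resting cells, and Id2 for Irf8 (-0.55). All 13 points depend on the detection depth of their population, and several of these genes were rare, Id3 reaching 5.59% at most, so the order is a description only. A profile at 20% or more in an early population, under 5% in naive cells and under 10% in every later population was met by Irf4, Irf8, Ccl4 and Xcl1, by limits chosen after the values were seen. Ccl4 and Xcl1 are chemokines made by activated CD8+ T cells.

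Within populations, the genes that went with Irf4 cell by cell were then ranked by the mean difference in share between cells with and without it over the 4 early populations. Il2ra, the high-affinity IL-2 receptor chain, led with 36.9 points, ahead of Irf8 (35.2), Myc, a driver of growth and metabolism (32.7), Xcl1 (20.4) and Cflar, an inhibitor of death receptor signalling (19.0), where the median of all 93 other genes was 1.74. Lowest was Klf2 (-31.7), a factor of quiescence and lymphoid recirculation. For Irf8, over the 3 populations with at least 10 cells of each kind, the order was Il2ra (34.9), Irf4 (34.5), Myc (31.4), Xcl1 (24.1) and Ccl4 (22.9), with Klf2 again lowest (-29.0) and a median of 0.79. Leaving out the members, both rankings opened with Il2ra, Myc and Xcl1, and each member stood second for the other. The rankings share the 60 cells that had both. Genes in few cells or in 100% of cells, such as Actb, can differ little in points, and both medians include them. Of all deposited values, 83.4% were at 0.

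Il2ra was in 38 of 56 first-division cells with Irf4 (67.9%, 54.0 to 79.7%) and 27 of 88 without (30.7%, 21.3 to 41.4%), and Irf4 cells had 8 of 93 other genes (8.60%) called higher. At day 3 it was in 27 of 35 (77.1%, 59.9 to 89.6%) and 45 of 108 (41.7%, 32.3 to 51.5%), where 9.68% were called higher. Proximal cells had 56.5% against 23.3% and distal cells 60.0% against 18.4%, beside 4.30% and 12.9% of genes called higher. Il2ra was thus called with Irf4 in all 4 populations, but among first-division cells at or above the median of other assays the difference was 14.9 points, under the call. It was as well with Irf8: 69.8% against 34.7% of first-division cells (7.53% of genes called higher), 58.8% against 25.8% of proximal cells (12.9%), 6 of 7 against 7 of 41 distal cells (21.5%) and 76.2% against 39.6% of day 3 cells (9.68%). At or above the median of other assays, the Irf8 differences of proximal and day 3 cells were 5.88 and 19.9 points, under the call. This number of other assays leaves out Irf4 and Irf8 but counts the compared gene itself, here and for Myc, Klf2 and Xcl1 below. The split thus selects cells partly by that gene, and no part of depth is read from it.

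Myc followed the same lines. It was in 76.8% of first-division cells with Irf4 and 40.9% without, 73.9% and 56.7% of proximal cells, 8 of 10 and 14 of 38 distal cells, and 71.4% and 37.0% of day 3 cells. With and without Irf8 the shares were 81.4% and 43.6%, 82.4% and 56.1%, 6 of 7 and 16 of 41, and 66.7% and 36.6%. Myc reached 20 points beside Irf4 in 3 populations, not in proximal cells, and beside Irf8 in 4. The Irf4 difference at day 3 was 12.9 points among cells at or above the median of other assays and 55.1 below it, and 13.1 points in the earlier and 54.9 in the later columns. At or above the median it was 18.1 points in first-division cells, under the call, and -6.83 in proximal cells, where the Irf8 difference was 5.04.

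Klf2 went the opposite way. It was in 6 of 56 first-division cells with Irf4 (10.7%, 4.03 to 21.9%) and 44 of 88 without (50.0%, 39.1 to 60.9%), where it was the only gene called lower (1.08%). At day 3 it was in 3 of 35 (8.57%, 1.80 to 23.1%) and 51 of 108 (47.2%, 37.5 to 57.1%), beside 2.15% called lower, and in 0 of 10 distal cells with Irf4 (up to 30.0%) and 39.5% without (4.30%). Proximal cells had 30.4% against 40% and no gene called lower. Beside Irf8, Klf2 was in 18.6% against 41.6% of first-division, 23.5% against 40.9% of proximal and 4.76% against 51.5% of day 3 cells, where 5.38% of genes were called lower. It was in 0 of 7 distal cells with Irf8 (up to 42.9%) and 36.6% without, beside 3.23%. The difference beside Irf4 was -33.3 and -22.6 points among first-division and day 3 cells at or above the median of other assays.

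**Figure D4:**
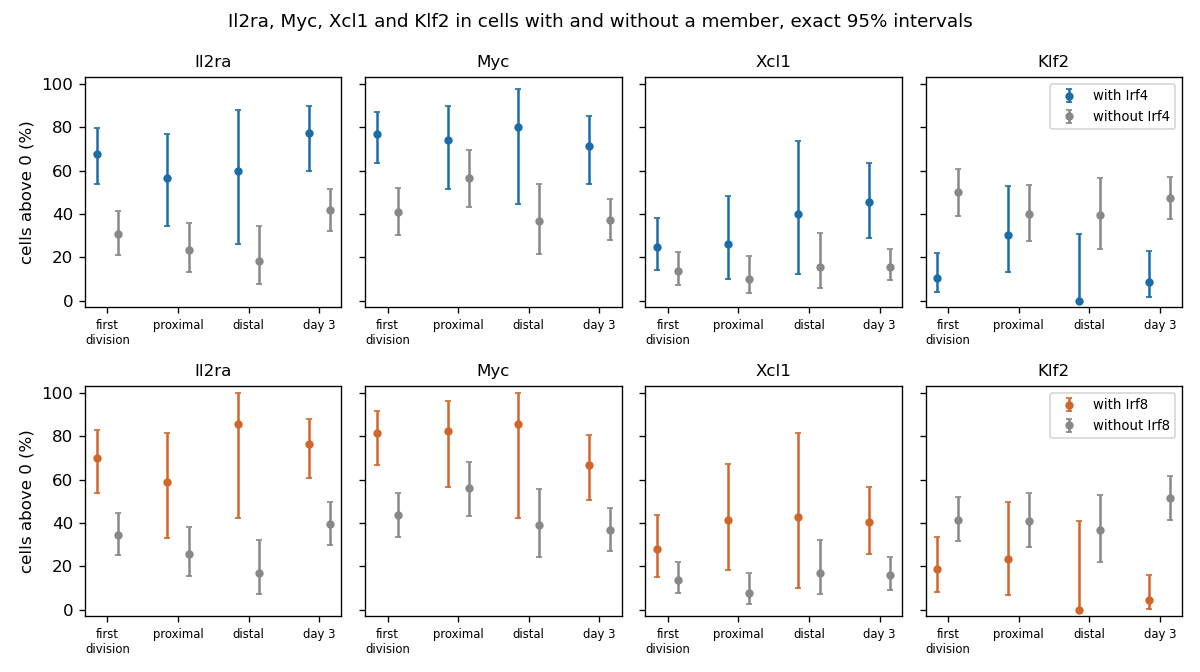
Share of cells with Il2ra, Myc, Xcl1 and Klf2 in percent, in cells with Irf4 (blue) or without it (grey, top row) and with Irf8 (orange) or without it (grey, bottom row) in the 4 early populations, with exact 95% intervals. Il2ra is at least 20 points higher beside each transcript in every population and Myc in all but proximal cells beside Irf4 (17.2 points), while Klf2 is lower, as at day 3 beside Irf4 with 77.1% against 41.7% for Il2ra and 8.57% against 47.2% for Klf2.

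The shares were then split by whether a cell had both transcripts. In first-division cells Il2ra was in 87.5% of cells with both (67.6 to 97.3%), 53.1% with Irf4 only, 47.4% with Irf8 only and 26.1% with neither (16.3 to 38.1%). At day 3 the shares were 95.0% (75.1 to 99.9%), 53.3%, 59.1% and 37.2% (27.0 to 48.3%). Single-transcript cells lay between, with intervals that overlapped each other. Myc ran 95.8%, 62.5%, 63.2% and 34.8% in first-division cells and 85.0%, 53.3%, 50.0% and 33.7% at day 3. Klf2 did not grade in this way, with 12.5%, 9.38%, 26.3% and 56.5% in first-division cells and 5.00%, 13.3%, 4.55% and 58.1% at day 3. In proximal and distal cells each class with a transcript had 2 to 12 cells. Cells with both did not lead there for Myc. It was in 72.7%, 75% and 6 of 6 proximal and 4 of 5, 4 of 5 and 2 of 2 distal cells with both, Irf4 only and Irf8 only. For Il2ra, cells with both led in proximal cells, with 63.6% against 50% and 50%. In distal cells they did not, with 4 of 5 against 2 of 5 and 2 of 2. The median number of other assays in the same 4 classes was 20, 22, 18 and 15 in first-division cells and 18, 15, 16 and 15 at day 3, and its part was not tested.

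Il2, the T cell growth factor, was rare. It was found in 14 cells of the whole series, by both of its assays in each, and 12 of these had Irf4, 12 had Irf8 and 11 had both. At day 3, Il2 was in 9 of 20 cells with both transcripts (45.0%, 23.1 to 68.5%), in 0 of 15 with Irf4 only (up to 20.0%), 1 of 22 with Irf8 only and 1 of 86 with neither (1.16%). The day 3 cells with both and Il2 lay in the earlier (4) and the later columns (5). Il2 was called beside Irf4 (25.7% against 1.85%) and beside Irf8 (23.8% against 0.99%) at day 3.

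Of the chemokines, Xcl1 and Ccl4 were named by the rankings. Xcl1 was in 45.7% of day 3 cells with Irf4 and 15.7% without, and in 40.5% and 15.8% with and without Irf8. In first-division cells the Irf4 difference was smaller, 25% against 13.6%, and among the cells at or above the median of other assays it was -2.00 points. Ccl4 was in 32.6% of first-division cells with Irf8 and 9.90% without, in 23.5% and 3.03% of proximal cells, and in 40.5% and 14.9% of day 3 cells. Beside Irf4, Ccl4 reached 20 points at day 3 alone (42.9% against 15.7%). Cflar reached 20 points beside Irf4 at day 3 (45.7% against 17.6%) and in distal cells (3 of 10 against 0 of 38).

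All 11 listed signals upstream of Irf4 (antigen receptor, NF-kappaB and growth) were measured. Between naive and first-division cells 3 of them were called higher (Il2ra, Myc and the costimulatory receptor Cd28) and none lower, with a median of 12 points against 4.51 over all genes. Between naive and day 3 cells 2 were (Il2ra and Myc), with a median of 8.45 against 1.95. In cells with Irf4 against those without, 3, 1, 5 and 2 of the 11 were called higher in first-division, proximal, distal and day 3 cells and none lower, beside 8.60%, 4.30%, 12.9% and 9.68% of all other genes. Tnfrsf9 was called beside Irf8 in first-division (32.6% against 8.91%), proximal (29.4% against 6.06%) and distal cells (2 of 7 against 2 of 41). In the same order, 7.53%, 12.9% and 21.5% of all other genes were called higher beside Irf8. Mapk14, the p38 kinase, was called beside Irf4 in first-division cells (33.9% against 13.6%), and Cd69, an early activation marker, beside it in distal cells (4 of 10 against 3 of 38). In first-division cells Cd69 ran the other way, in 8.93% with Irf4 and 20.5% without, a difference under the call. Beside Irf8, Cd69 was called in distal cells (4 of 7 against 3 of 41). It was higher there under the call in first-division (23.3% against 12.9%), proximal (5.88% against 3.03%) and day 3 cells (35.7% against 20.8%).

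Of the 11 listed partners and described targets of Irf4, 9 were measured. Between naive and first-division cells 1 was called higher, the T-box factor Eomes (41.7% of first-division cells), and 1 lower, Klf2, beside 10.6% and 3.19% of all genes, and the list's median of 2.78 points lay below the 4.51 of all genes. In cells with Irf4, Klf2 was called lower in first-division, distal and day 3 cells, and Eomes higher in proximal cells (69.6% against 40%). Beside Irf8, Eomes was called higher in proximal cells (76.5% against 40.9%) and in distal cells (4 of 7 against 10 of 41). There 12.9% and 21.5% of all other genes were called higher. Tcf7, which encodes the memory-associated factor TCF1, was called lower beside Irf8 at day 3 (59.5% against 83.2%) and in distal cells (3 of 7 against 28 of 41). There 5.38% and 3.23% of all other genes were called lower. With and without Irf8 its shares were close in first-division (69.8% and 71.3%) and proximal cells (82.4% and 83.3%). Beside Irf4 the day 3 shares of Tcf7 were 62.9% and 80.6%, under the 20 points. Prdm1, which encodes Blimp-1, was in 5 of 56 first-division cells with Irf4 and 1 of 88 without. Bcl6, of the same list, was in 8 of 56 and 0 of 88, and both differences were under the 20 points. In proximal cells Prdm1 was in 0 of 23 and 1 of 60, and Bcl6 in 1 of 23 and 4 of 60. No distal or day 3 cell had Prdm1. Both genes were chosen after their values were seen.

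Of the 7 common gamma chain genes, 4 were measured. Il2ra and Il2rb were called higher and Il7r lower both at the first division and at day 3 against naive cells. Il2rb, the chain shared by the IL-2 and IL-15 receptors, was called beside Irf8 in proximal (64.7% against 43.9%), distal and day 3 cells (64.3% against 35.6%), and in no population beside Irf4. In the same order, 12.9%, 21.5% and 9.68% of all other genes were called higher beside Irf8. The interferon gamma axis had 5 of 7 genes measured and none called in either comparison with naive cells. Ifng, the effector cytokine, was called beside Irf4 at day 3 (28.6% against 8.33%) and in distal cells (2 of 10 against 0 of 38). There 9.68% and 12.9% of all other genes were called higher. In distal cells Ifng (2 of 7 against 0 of 41) and the chemokine Cxcl10 (2 of 7 against 2 of 41) were called beside Irf8. With these 7 cells, 21.5% of all other genes were called higher.

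The cells were checked for their labelled type. Among the 173 early cells with either member, the leukocyte gene Ptprc was in 96.0%, Cd8a in 53.2% and Thy1 in 40.5%, against 92.7%, 43.3% and 28.6% of the 245 early cells with neither. Both classes pool populations that differ in their share of cells with a member (52.1% of first-division, 25% of distal cells). They differ in Cd8a too (60.4% of first-division, 27.3% of day 3 cells), and the part of this mix was not tested. Cd4 and Foxp3 were in 0 of the 173 (up to 1.73%) and Gata3 in 3. Of the 10 listed markers of myeloid, dendritic and B cells, which can express Irf8 or Irf4, none was among the measured genes, so these cells could not be checked here. The sort had used stains for CD4, CD11b, CD11c and F4/80.

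The few day 5 cells with a member differed from the early ones in Klf2 and Myc. Klf2 was in 8 of 9 cells with Irf4 and 9 of 9 with Irf8, close to the 93.4% of the 136 day 5 cells with neither, and Myc in 0 of 9 of each (up to 33.3%) against 5.15%. Il2ra was in 6 of 9 cells with Irf4 and 4 of 9 with Irf8, against 36.0% with neither, with intervals that overlapped.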

How the data were processed

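Single CD8+ T cells were sorted into a reverse transcription and preamplification mix, given 18 cycles of amplification with all TaqMan assays in 1 pool, and after 5-fold dilution read on Fluidigm dynamic arrays, per the labels' protocols. The deposited table holds 95 assay rows (Il2 has 2) and 1449 cells, as log2 values on the scale of PCR cycles, not normalized by the authors. The labels call them Ct, but higher values mean more RNA and 0 stands for no detection. The values were taken as 40 less the Ct, an offset inferred from the data, so that 12 is Ct 28 and 6 is Ct 34. Names came from RefSeq (GRCm38.p6), in which the accessions of 93 rows were found.

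The 1 sample per population allows no test. Shares carry exact 95% binomial intervals, differences Newcombe intervals, and a count of 0 the limit of 3 cells. Each population held 48 to 154 cells and a median of 11 to 19 detected assays per cell. "Earlier" and "later" columns are the first and last parts of a population's columns in file order, of equal or nearly equal number. The named genes were, for each gene, the 5 most like it over populations (Spearman rho) and the 5 with the largest mean difference between cells with and without it, plus list members that reached 20 points, and others are marked as chosen after their values were seen. Some genes that these rules name are not reported here. The members, lists and rules were chosen with earlier results of these data known. The design assumed Ct, which runs the other way, and was otherwise kept. Alternatives were detection limits, minimum assays per cell, parts of the columns, a call at 10 points, other height summaries and Pearson's r, and after seeing the data cells by number of other assays and by columns for the other genes. For the other genes, the number of other assays counted the compared gene itself. Scripts ran in Python 3.11.15 (scipy 1.17.1, numpy 2.4.6, matplotlib 3.10.9). The calling rule was also run on simulated independent cells with a large added rise and no depth or column effect. That run checks the code only and cannot bear on the calls made here.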

Additional observations from a re-analysis of the deposited data

How the results depend on the processing

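Of 108 alternative values of the differences in share, 91 lay within the 95% interval of the reported difference, which can span over 20 points, 17 lay outside it and none reversed a called difference. For Irf4, day 3 minus naive was 8.39 points with values past 12 only, 16.1 with values past 6 and 34 over cells with at least 15 assays. First division minus naive was 47.7 with at least 15 assays. Day 3 minus first division was -30.5 with values past 12, -0.96 over the earlier and -27.8 over the later columns. Day 5 minus day 3 was -2.55 with values past 12 and -10.2 past 6, and day 7 minus day 5 was -8.90 over the earlier and 3.18 over the later columns. All 22 day 3 values of Irf4 in the earlier columns were under 12, and 12 of the 13 in the later columns were past it. Proximal minus distal was -16.7 with at least 15 assays, which 13 distal cells had. For Irf8, first division minus naive was 21.5 and day 3 minus naive 21.7 with values past 12, and the latter 38.1 with at least 15 assays. At that limit proximal minus distal was -18.7 over 13 distal cells, and Tem minus Tcm 6.36 over 11 Tem cells. Of 20 co-detection values 16 lay within the reported interval and 4 outside it: at or above the median of other assays the first-division difference was 1.77, and below it the differences were 37.7 (first division), 9.77 (proximal) and 0 (distal). Of 155 values of other genes 132 lay within it, 22 outside it and 1 reversed, Xcl1 beside Irf8 in the later distal columns (-1.05 points, 5 cells with Irf8). The causes were not tested.

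Calling at 10 points in place of 20 gave, higher and lower, 30 and 3 genes (10 and 3) for first division minus naive, 19 and 4 (9 and 3) for day 3 minus naive, 1 and 13 (0 and 5) for day 3 minus first division, 20 and 16 (12 and 9) for day 5 minus day 3, 6 and 13 (0 and 5) for day 7 minus day 5, 21 and 2 (8 and 0) for proximal minus distal, 11 and 5 (2 and 3) and 4 and 7 (3 and 2) for Tsle minus Tmp at days 5 and 7, and 1 and 19 (0 and 12) for Tem minus Tcm. The depth is the number of cells: a share of 0 allows 1.95% in the population of 154 cells and 6.25% in that of 48. No paired analysis was possible because each population is 1 sample.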
